A study of Mus musculus with 6 samples.

Results

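The 83 genes described here encode the nuclear subunits of the oxidative phosphorylation machinery, taken by gene symbol from the 19938 genes that had a probe with a single symbol on the array. They comprised 36 genes of complex I, 4 of complex II, 9 of complex III, 17 of complex IV and 17 of complex V. A gene entered when its symbol began with Ndufa, Ndufb, Ndufc, Ndufs, Ndufv, Uqcr, Cox4 to Cox8 or Atp5, or was Sdha, Sdhb, Sdhc, Sdhd or Cyc1, and the assembly factors named Ndufaf and the genes named Atp5s were left out. Measured values played no part in the choice of genes, but where a gene had several probes, as 17 of the 83 did, the probe with the highest mean over the 6 arrays stood for it. The symbols also brought in Cox7a2l, which helps respiratory complexes join into supercomplexes, Ndufa4l2, a paralog induced in low oxygen, and Ndufa4, which carries a complex I name but is now counted as a subunit of complex IV.

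Oxidative phosphorylation is the process by which mitochondria turn the electrons of NADH and succinate into ATP. Complexes I and II take electrons in, complex III passes them on to cytochrome c and complex IV hands them to oxygen, while complex V, the ATP synthase, spends the proton gradient that complexes I, III and IV build. Of the subunits, 13 are encoded by mitochondrial DNA and all the others by nuclear genes, several of which come in a common form and a form restricted to muscle, lung or testis.

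The data were from N2A cells, a mouse neuroblastoma line, transiently transfected with a plasmid expressing a short hairpin RNA (shRNA) from a U6 promoter. In 3 samples (Pbcas4 shRNA) the hairpin targeted Pbcas4, the transcribed mouse pseudogene of BCAS4, and in 3 control samples (scramble) it carried a permuted sequence, so that both groups had been transfected with a hairpin plasmid. Cells were transfected 24 h after plating and harvested after 72 h, and their total RNA was hybridized to Affymetrix Mouse Gene 1.0 ST arrays. Values are log2 expression per probe as deposited, a difference is the mean of the shRNA arrays minus that of the scramble arrays, and p-values measure the spread between separate transfections of one cell line.

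The labels were checked only in part, since the level of Pbcas4 was not analysed here. Of 12 sympathoadrenal genes listed as markers of N2A cells, 10 were measured, and their mean log2 level was 11.81 to 11.88 with the shRNA construct and 12.20 to 12.39 with the scramble construct. At an unadjusted p under 0.05 in limma, 4 of these markers had a lower shRNA mean (Th, Chgb, Uchl1 and Stmn2), against 5.46% of all genes, and their part in the values below was not tested. The means of the macrophage markers (6.72 to 6.79), fibroblast markers (7.14 to 7.49), epithelial markers (7.53 to 7.73) and glial markers (7.14 to 7.41) were below the array medians of 7.75 to 7.86. At an unadjusted p under 0.05 in limma, 1 of the 8 fibroblast markers had a higher shRNA mean, against 6.22% of all genes. No marker of the other 3 types reached that level in either direction. Scramble replicate 1 resembled the 3 shRNA arrays (r = 0.990 to 0.993 across probes) more than scramble replicates 2 and 3 (r = 0.988 and 0.987), and the values of the members it moved most are also given without it. The labels give a replicate number and no pairing. Arrays of the same number were treated as pairs, because their deviations from the group means were correlated (r = 0.291, 0.137 and 0.103 over all probes). The deviations of shRNA replicate 2 were closer to those of scramble replicate 3 (r = 0.199), so values by pair or block rest on an assumed pairing.

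Most subunit transcripts had similar levels with both constructs. The difference was within 0.2 on the log2 scale for 70 of the 83 genes (84.3%), against 74.0% of all genes, and the median difference was -0.02, against 0.003 over all genes. Values ran from -0.83 for Cox7a1 to 0.26 for Ndufv1, and 4 genes exceeded 0.5 in size, all with a lower mean in the shRNA arrays. The median farthest from 0 was that of complex IV, where 15 of 17 genes had a lower shRNA mean and the median difference was -0.11. The medians of the other complexes were -0.004 for complex I, -0.02 for complex II, -0.01 for complex III and 0.02 for complex V.

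**Figure D1:**
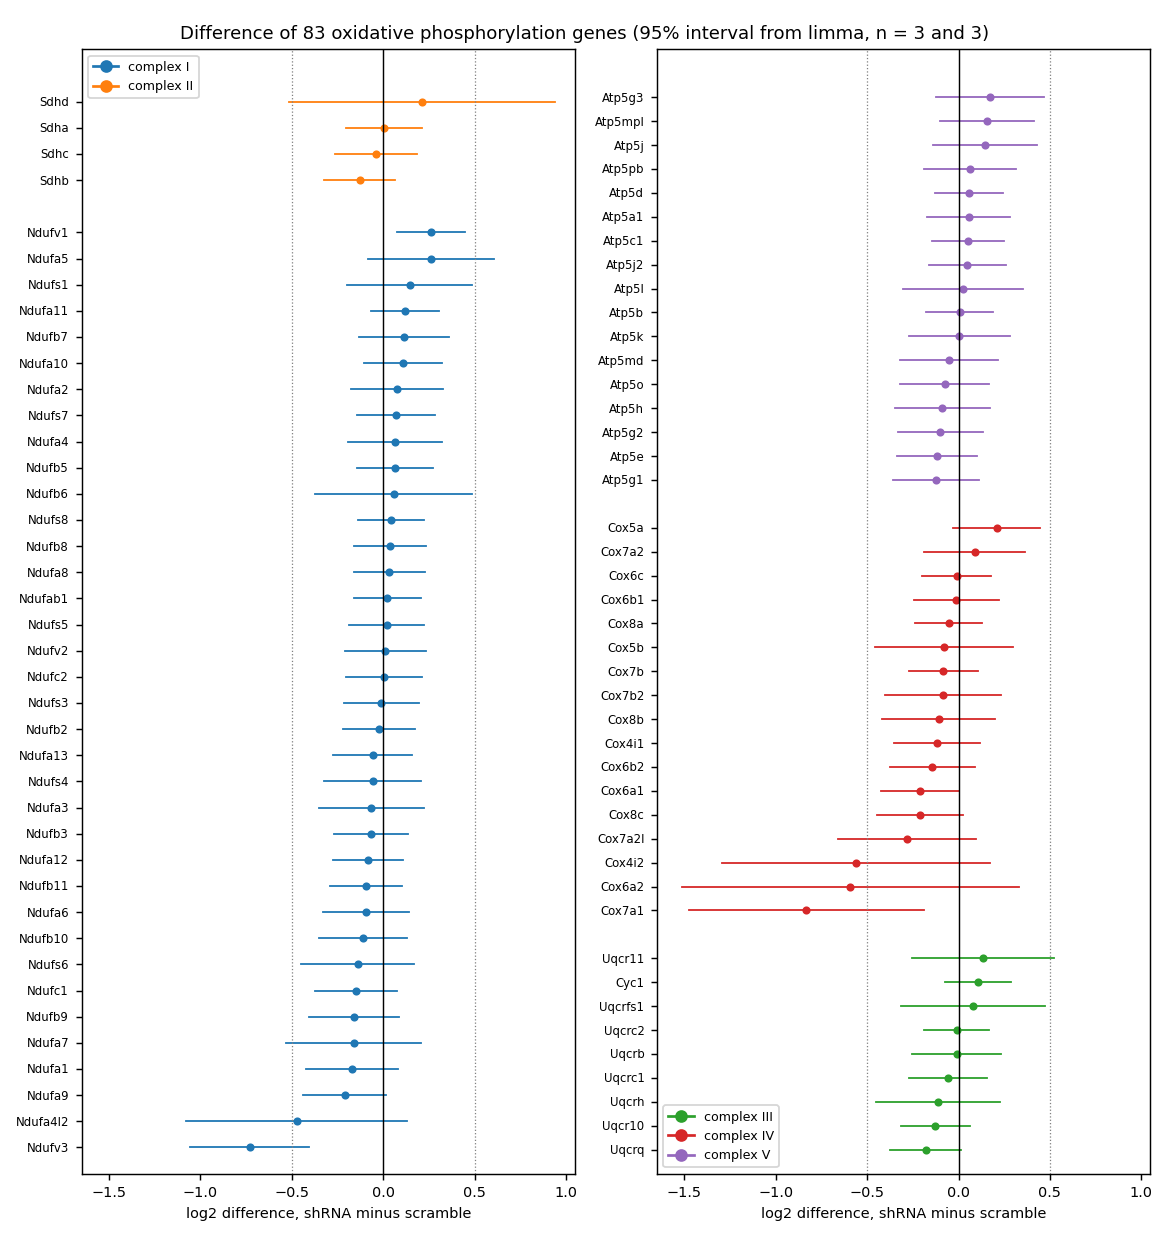
Log2 difference (shRNA minus scramble, horizontal axis) of each of the 83 genes, one row per gene, in the colour of its complex; the point is the difference of the means of 3 and 3 arrays and the line its 95% interval from limma. Dotted lines mark 0.5 in either direction, and apart from Cox7a1, Cox6a2, Cox4i2 and Ndufv3 every point lies between them.

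No gene met the criterion of an adjusted p under 0.05 with a difference over 0.5: limma called 0 of the 83 and 0 of 19938 genes (0%). At an unadjusted p under 0.05, limma gave 1 member a higher mean (Ndufv1; 1.2%, against 6.22% of all genes) and 2 a lower mean (Ndufv3 and Cox7a1; 2.41%, against 5.46%). With the array number as a block, 2 members had a higher mean at that level (Ndufv1 and Ndufa5; 2.41%, against 7.2% of all genes) and 4 a lower mean (Ndufv3, Cox7a1, Cox4i2 and Ndufa4l2; 4.82%, against 7.35%). The values of the 2 groups did not overlap for 4 members that were higher (4.82%, against 9.13% of all genes) and 9 that were lower (10.8%, against 7.63%), and for each of them the exact two-sided permutation p was 0.1, the smallest that 3 arrays against 3 can give. After each array was centred on its median, which moved the median of all genes to 0.03, 6 members were higher (7.23%, against 12.2% of all genes) and 2 lower (2.41%, against 4.7%) without overlap, so the split between higher and lower genes turned with the centring. The 95% interval lay wholly inside 0.5 in either direction for 73 of the 83 genes (88.0%) and for 70.5% of all genes.

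Promoters are shown for 6 genes, because nuclear respiratory genes are known to share binding sites for NRF1, the ETS factor GABP, YY1 and the ERR nuclear receptors. RefSeq promoters on GRCm38.p6, each of 250 bases before and 50 after a start, were found for 67 of the 83 genes, and 5 of these had a second window. The 150 bases before the start are printed for Ndufv1 and Ndufv3, the complex I genes with the largest differences in each direction, for the isoform pair Cox7a1 and Cox7a2, and for Cox6a1 and Sdhb, lower in every shRNA array and holding a match. They are written 5′ to 3′ on the strand of the gene, and capitals mark a match to the NRF1 core GCATGCGC or to the ETS core CCGGAAG, read on either strand.
Ndufv1, chr19:4012756-4012905, minus strand: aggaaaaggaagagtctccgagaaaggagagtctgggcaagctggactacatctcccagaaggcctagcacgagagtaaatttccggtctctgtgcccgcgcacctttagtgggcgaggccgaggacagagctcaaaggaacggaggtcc
Ndufv3, chr17:31519965-31520114, plus strand: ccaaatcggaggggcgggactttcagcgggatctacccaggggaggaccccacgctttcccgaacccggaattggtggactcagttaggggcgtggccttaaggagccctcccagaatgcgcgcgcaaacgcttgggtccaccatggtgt
Cox7a1, chr7:30184021-30184170, plus strand: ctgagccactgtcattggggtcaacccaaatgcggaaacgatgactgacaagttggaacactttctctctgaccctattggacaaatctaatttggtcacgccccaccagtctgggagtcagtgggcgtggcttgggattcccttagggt
Cox7a2, chr9:79759854-79760003, minus strand: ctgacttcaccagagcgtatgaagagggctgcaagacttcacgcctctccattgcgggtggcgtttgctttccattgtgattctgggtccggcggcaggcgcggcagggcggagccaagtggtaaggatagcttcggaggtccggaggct
Cox6a1, chr5:115348959-115349108, minus strand: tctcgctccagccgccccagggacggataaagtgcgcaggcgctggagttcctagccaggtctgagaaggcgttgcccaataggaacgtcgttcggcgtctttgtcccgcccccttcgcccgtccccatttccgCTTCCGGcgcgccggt
Sdhb, chr4:140961121-140961270, plus strand: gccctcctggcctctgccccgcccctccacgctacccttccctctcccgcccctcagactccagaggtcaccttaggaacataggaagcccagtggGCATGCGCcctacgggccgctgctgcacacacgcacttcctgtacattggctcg
The ETS match of Cox6a1 is on the opposite strand, and the gene also holds the NRF1 core further upstream than the stretch shown. Sdhb also holds the ETS core, on its own strand after the start and so outside the stretch shown. The stretches of Ndufv1, Ndufv3, Cox7a1 and Cox7a2 held neither set of letters, and that of Cox7a1, the muscle isoform, held 4 CpG dinucleotides against 11 in that of Cox7a2, the common isoform. Cox6a1 and Sdhb were picked as lower genes, but matches also stood in the windows of genes with a higher shRNA mean. Examples were Ndufs8 (ETS core, difference 0.04) and Uqcr11 (both cores, 0.13), and whether matches go with a direction was not tested.

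Over the whole windows, the NRF1 core was found in 10 of the 67 genes (14.9%), against 4.27% of 15614 measured genes with a promoter and 2.71% of all 32851 windows. The ETS core stood in 17 (25.4%, against 13.6% of measured genes and 8.86% of windows), the YY1 core AAGATGGC in 10 (14.9%, against 3.77% and 2.75%) and the ERR motif AAGGTCA in 7 (10.4%, against 4.48% and 4.72%). A TATA box, TATAAA, was found in 8 (11.9%, against 13.6% of measured genes and of windows). Both strands were searched for each motif, and the NRF1 core can overlap its own reverse complement, as it does in Cox6a1. The median number of CpG dinucleotides per window was 14 in the members and 11 in the measured genes. Such matches describe letters in the genome and carry no measurement of binding in N2A cells.

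Complex I oxidizes NADH, and its 36 genes divided evenly, 18 with a higher and 18 with a lower shRNA mean. Ndufv3, a small accessory subunit at the NADH-oxidizing tip of the complex, had log2 values of 10.07, 10.38 and 10.29 in shRNA replicates 1, 2 and 3 and of 10.80, 11.20 and 10.94 in scramble replicates 1, 2 and 3. All shRNA arrays lay below all scramble arrays. Its difference was -0.73 ± 0.14 (SE), a 1.66-fold lower level, with an adjusted p of 0.344 from limma. With the array number as a block the adjusted p was 0.235, and the differences within the pairs of arrays numbered 1, 2 and 3 were -0.73, -0.82 and -0.64.

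Ndufv1, the core subunit that binds the flavin and accepts electrons from NADH, lay the other way. Its values were 12.23, 12.26 and 12.22 in the shRNA arrays against 12.02, 11.92 and 11.98 in the scramble arrays, again with no overlap. The difference was 0.26 ± 0.08 (SE), with an adjusted p of 0.402 from limma. Ndufv1 and Ndufv3 thus stood at opposite ends of the complex I genes, and their products belong to the same module of the enzyme.

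Of the 6 nuclear core subunits of complex I analysed here, which carry the flavin and the iron-sulphur clusters or line the path of the electrons, 5 had a higher shRNA mean, with a median difference of 0.06; the count was 4 after quantile normalization and 6 after each array was centred on its median. Their mean log2 level was 12.39, 12.33 and 12.35 in the shRNA arrays against 12.33, 12.27 and 12.21 in the scramble arrays, so only shRNA replicates 1 and 3 stood above every scramble array. Ndufs8, an iron-sulphur subunit, was higher in each shRNA array (12.17, 12.19 and 12.16 against 12.10, 12.14 and 12.14), but by only 0.04 on average. Ndufs1, which carries several iron-sulphur clusters, differed by 0.14 ± 0.14, Ndufs7, which holds the last cluster before the quinone, by 0.07 ± 0.09, Ndufv2 by 0.01 ± 0.09 and Ndufs3 by -0.01 ± 0.09 (SE, n = 3 and 3).

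The 28 accessory subunits of complex I, with Ndufa4 and Ndufa4l2 left out, had a median difference of -0.06, and 16 of them had a lower shRNA mean. Ndufa9, an accessory subunit next to the quinone-binding part, was lower in all shRNA arrays (12.23, 12.10 and 12.02 against 12.25, 12.34 and 12.40), with a difference of -0.21 ± 0.09 and an adjusted p of 0.52 from limma. The other accessory subunits whose groups did not overlap, named here after their values were seen, were Ndufc1 (-0.15) and Ndufa12 (-0.09), both lower, and Ndufa11 (0.12), higher. The second probe of Ndufc1 was also lower without overlap (-0.18), while that of Ndufa11 differed by -0.02 and its groups overlapped. Ndufa5 had a difference of 0.26 ± 0.14, with 9.85, 9.64 and 9.62 in the shRNA arrays against 9.72, 9.31 and 9.29 in the scramble arrays. For Ndufa5, scramble replicate 1 was inside the range of the shRNA arrays, and the difference was larger within pairs 2 and 3 (0.32 and 0.33) than within pair 1 (0.13). Without scramble replicate 1 it was 0.40.

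Complex II, succinate dehydrogenase, also works in the citric acid cycle and is the complex with no subunit from mitochondrial DNA. Sdha, the flavin subunit, had 12.79, 12.73 and 12.67 in the shRNA arrays against 12.82, 12.69 and 12.66 in the scramble arrays, a difference of 0.00 ± 0.09 (SE). Sdhb, the iron-sulphur subunit, was lower in each shRNA array, with 12.82, 12.91 and 12.85 against 12.92, 13.02 and 13.02, a difference of -0.13 ± 0.08 and an adjusted p of 0.672 from limma. Of the membrane anchors, Sdhc differed by -0.04 ± 0.09. The other anchor, Sdhd, had 12.05, 11.38 and 11.42 in the shRNA arrays against 11.97, 11.34 and 10.90 in the scramble arrays. Both arrays numbered 1 were the highest, scramble replicate 3 was the lowest, and the difference of 0.21 ± 0.30 was smaller than its error. Without scramble replicate 1 the difference of Sdhd was 0.50, with an adjusted p of 0.395 from limma. Without scramble replicate 3 instead, its sign turned. The shRNA mean of 11.62 lay between scramble replicates 1 and 2, and all 4 genes of complex II then had a lower shRNA mean.

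Complex III passes electrons from ubiquinol to cytochrome c, and its 9 genes lay between -0.18 and 0.13. Cyc1, cytochrome c1, had 13.50, 13.55 and 13.52 in the shRNA arrays against 13.45, 13.42 and 13.39 in the scramble arrays, higher in every shRNA array by a mean of 0.11 ± 0.08. Uqcrq, a small subunit, had 12.30, 12.41 and 12.36 against 12.48, 12.56 and 12.56, lower in every shRNA array by -0.18 ± 0.08, with an adjusted p of 0.525 from limma. Uqcr10, another small subunit, was lower in all shRNA arrays as well, by -0.13 ± 0.08. The Rieske iron-sulphur protein Uqcrfs1 differed by 0.08 ± 0.16 and the core protein Uqcrc2 by -0.01 ± 0.07. Uqcrc2 was among the steadiest genes of the set, with every array between 13.33 and 13.36.

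**Figure D2:**
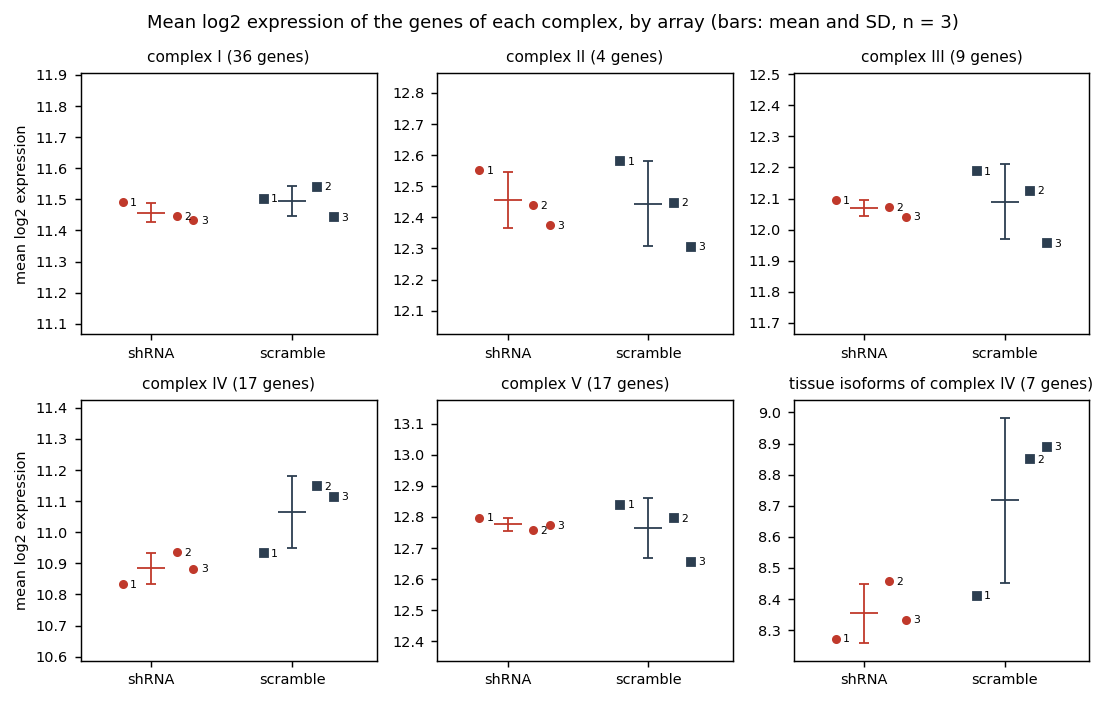
Mean log2 expression over the genes of each complex (vertical axes, of equal span) in each array, numbered by replicate; bars are the mean and SD of 3 arrays. The constructs overlap in complexes I, II, III and V, while for complex IV 1 scramble array lies among the shRNA arrays and the other scramble arrays lie above them.

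Complex IV, cytochrome c oxidase, had the most one-sided differences of the 5 complexes. A lower shRNA mean was found for 15 of its 17 genes, also after quantile normalization, and for 13 after each array was centred on its median. None of the higher members and 2 of the lower ones, Cox6a1 and Cox7b, had groups that did not overlap, against 9.13% of all genes that were higher and 7.63% that were lower, and on the second probe of Cox7b (-0.11) the groups overlapped. Within pairs of arrays with the same number, 7 of 17 genes (41.2%) were lower in the shRNA array of all 3 pairs, against 18% of all genes. The mean over the complex was 10.83, 10.94 and 10.88 in the shRNA arrays against 10.93, 11.15 and 11.11 in the scramble arrays, so scramble replicate 1 lay among the shRNA arrays. Without that array the median difference was -0.135 and 13 of the 17 genes were lower.

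The differences were larger among the isoforms whose expression is restricted to certain tissues. All 7 of them (Cox4i2, Cox6a2, Cox6b2, Cox7a1, Cox7b2, Cox8b and Cox8c) had a lower shRNA mean, under either rescaling too and 6 of 7 without both arrays numbered 1, with a median difference of -0.21, while the 9 common subunits of the complex had a median of -0.05 with 7 lower. Their groups overlapped for all 7. The isoforms averaged 8.27, 8.46 and 8.33 in the shRNA arrays against 8.41, 8.85 and 8.89 in the scramble arrays, and scramble replicate 1 again lay within the range of the shRNA arrays. Without it the median of the isoforms was -0.27. In the same order of arrays, the listed cell division genes averaged 12.36, 12.20 and 12.17 and then 12.22, 11.41 and 10.96, so scramble replicate 1 lay within the range of the shRNA arrays there too. The part of that in the isoform values was not tested, and in bulk RNA fewer cells expressing a gene cannot be told apart from less RNA per cell.

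Cox7a1, the heart and skeletal muscle form of subunit 7a, had the largest difference of all 83 genes. Its values were 8.76, 9.55 and 9.02 in the shRNA arrays against 9.49, 10.29 and 10.05 in the scramble arrays. The groups overlapped, because shRNA replicate 2 was higher than scramble replicate 1, but within pairs the shRNA array was lower each time, by -0.73, -0.74 and -1.03. The difference was -0.83 ± 0.27 (SE), a 1.78-fold lower level, with an adjusted p of 0.426 from limma, and an adjusted p of 0.235 with the array number as a block. The common form Cox7a2 had 12.26, 12.12 and 12.18 against 12.27, 12.13 and 11.90, a difference of 0.09 ± 0.12, and Cox7a2l differed by -0.28 ± 0.16, or by -0.45 without scramble replicate 1.

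Cox6a2, the muscle form of subunit 6a, had 9.09, 9.26 and 9.21 in the shRNA arrays against 8.84, 10.07 and 10.44 in the scramble arrays. The lowest and the 2 highest of its values were thus all in scramble arrays, and the difference of -0.59 ± 0.39 had an adjusted p of 0.686 from limma. Without scramble replicate 1 it was -1.06, with an adjusted p of 0.0614, the lowest over all probes in that fit, and without scramble replicate 3 it was -0.265. Its common counterpart Cox6a1 had 12.56, 12.60 and 12.62 against 12.68, 12.88 and 12.85, with no overlap and a difference of -0.21 ± 0.09.

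Cox4i2, the lung form of subunit 4, which is induced in low oxygen, had 8.87, 9.51 and 9.08 in the shRNA arrays against 9.06, 10.15 and 9.93 in the scramble arrays, a difference of -0.56 ± 0.31 with an adjusted p of 0.611 from limma. Ndufa4l2 had a similar order of arrays, with 7.81, 8.10 and 7.87 against 7.88, 8.91 and 8.42 and a difference of -0.47 ± 0.25. For both, scramble replicate 1 lay within the range of the shRNA arrays and scramble replicates 2 and 3 lay above it. The common forms Cox4i1 and Ndufa4 differed by -0.12 ± 0.10 and 0.06 ± 0.11.

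The remaining isoforms were dim on the array and differed less. Cox8c and Cox6b2, both known from testis, differed by -0.21 ± 0.10 and -0.14 ± 0.10, Cox8b, the muscle form of subunit 8, by -0.11 ± 0.13 and Cox7b2 by -0.09 ± 0.13 (SE, n = 3 and 3). The means of Cox6b2 and Cox8b lay below the median of all probes, where 81 of the 83 genes lay above it. The common forms Cox8a, Cox6b1 and Cox7b differed by -0.05 ± 0.08, -0.01 ± 0.10 and -0.08 ± 0.08. Cox5a, named after its values were seen, was one of the pair of complex IV genes with a higher shRNA mean, at 0.21 ± 0.10, with 12.10, 11.94 and 11.99 against 11.94, 11.77 and 11.70.

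**Figure D3:**
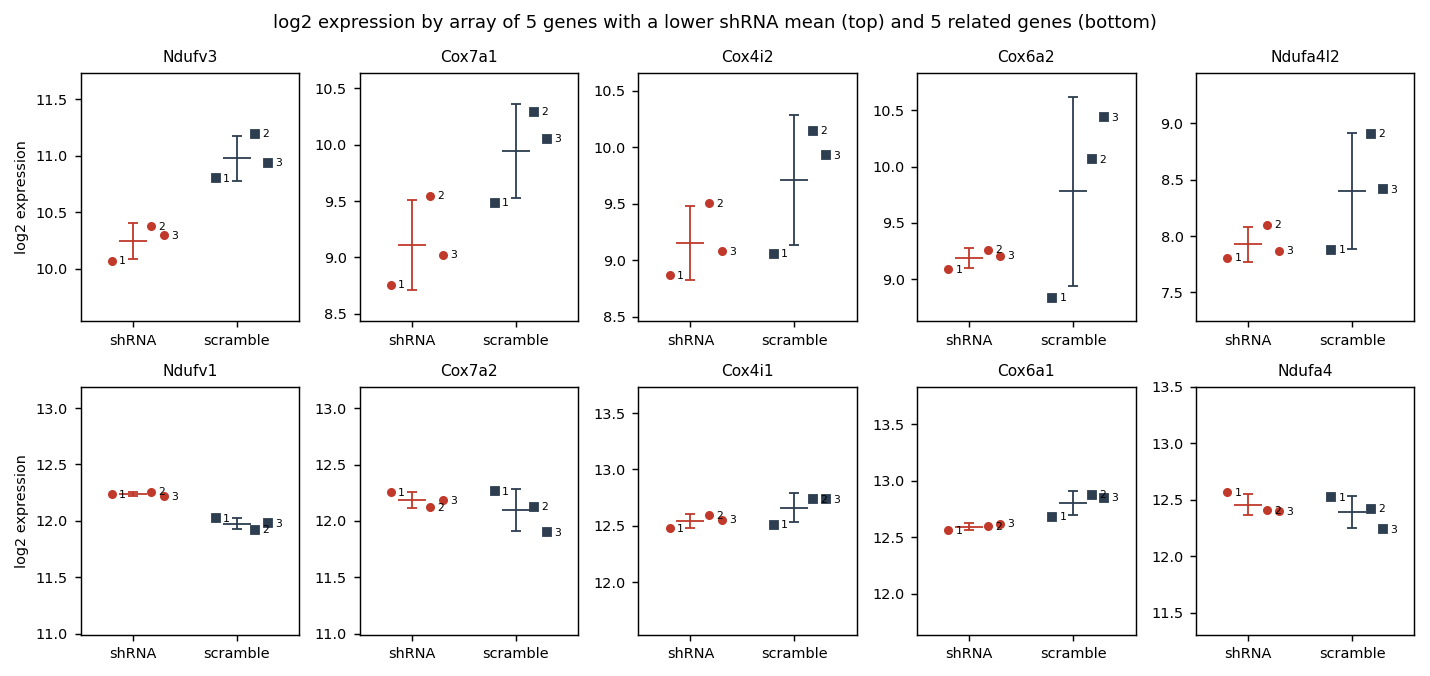
Log2 expression (vertical axes, of equal span) in each array, numbered by replicate, of 5 genes with a lower shRNA mean (top) and of 5 related genes (bottom); bars are the mean and SD of 3 arrays. Only Ndufv3 in the top row has groups that do not overlap, and scramble replicate 1 is the lowest scramble array in every panel of the top row.

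For several of these genes scramble replicate 1 lay among the shRNA arrays, so the fit was repeated without it. Because the array was picked for its values, larger differences without it follow from that choice and are no added support. At an unadjusted p under 0.05, limma then gave 9 of the 83 genes a lower mean (10.8%, against 8.03% of all genes) and 3 a higher mean (3.61%, against 11.4%). The differences of Cox7a1, Cox4i2, Ndufa4l2 and Ndufv3 were -1.06, -0.89, -0.74 and -0.82, with adjusted p-values of 0.105, 0.107, 0.118 and 0.0672. Without scramble replicate 2 or 3 instead, only Ndufv3 of these 4 genes was at an unadjusted p under 0.05 in limma. With arrays weighted by their estimated quality, limma called these 4 genes lower (4.82%, against 3.18% of all genes called lower), with adjusted p-values of 0.0172 to 0.036. The weights ran from 0.353 for scramble replicate 1 to 5.32 for shRNA replicate 3, and their estimation stopped before it converged.

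Complex V, the ATP synthase, uses the proton gradient to make ATP. All 17 intervals lay inside 0.5 in either direction, no gene had groups that did not overlap, and the differences ran from -0.12 to 0.17. The catalytic core subunits Atp5a1 and Atp5b, alpha and beta, differed by 0.05 ± 0.09 and 0.01 ± 0.08, and Atp5b lay between 14.38 and 14.46 in every array. The genes Atp5g1, Atp5g2 and Atp5g3 encode the same mature c subunit of the membrane rotor, and they differed by -0.12 ± 0.10, -0.10 ± 0.10 and 0.17 ± 0.12. Atp5g3 had 13.68, 13.51 and 13.58 in the shRNA arrays against 13.61, 13.44 and 13.21 in the scramble arrays, so scramble replicates 2 and 3 lay below every shRNA array and scramble replicate 1 lay within their range. Atp5mpl, a small membrane subunit, and Atp5j, coupling factor 6 of the peripheral stalk, followed with 0.16 ± 0.11 and 0.15 ± 0.12. A higher shRNA mean was found for 11 of the 17 genes, for 9 after quantile normalization and for 6 without scramble replicate 3, where the median turned from 0.02 to -0.02.

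Many of the genes were also ordered by the number of the array. In 29 of the 83 genes (34.9%) the array numbered 1 was the highest of its construct in both constructs, against 18.6% of all genes, and in 16 (19.3%, against 19.3%) it was the lowest in both. The share of genes highest in both was 58.8% in complex V (10 of 17) and 33.3% in complex I (12 of 36). Complex IV went the other way, with 2 genes highest and 6 of 17 (35.3%) lowest in both. Sdhd stood out, with 0.65 and 0.85 more in the array numbered 1 than in the other arrays of the shRNA and the scramble construct.

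**Figure D4:**
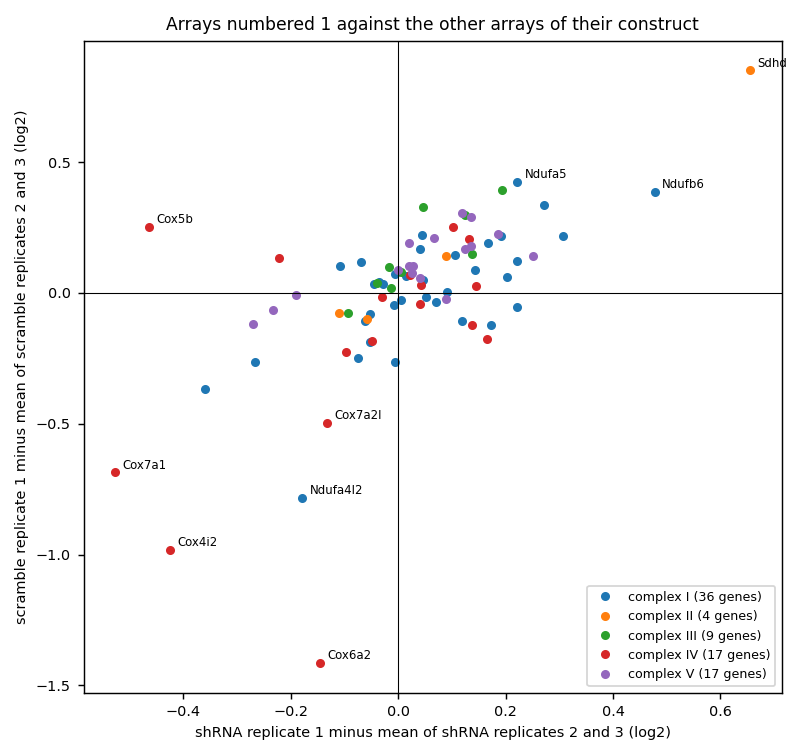
Each point is 1 of the 83 genes: log2 value in shRNA replicate 1 minus the mean of shRNA replicates 2 and 3 (horizontal axis) against the same for the scramble arrays (vertical axis), coloured by complex. Most genes of complex V lie at the upper right, Sdhd lies farthest up, and Cox6a2, Cox4i2, Cox7a1 and Ndufa4l2 lie at the lower left.

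Among the genes with several probes, both Cox7a2l probes had a lower shRNA mean, at -0.28 and -0.11, and the 6 probes of Atp5l lay between 0.02 and 0.07. Subunits whose probes match several symbols were not counted among the 83: the probes of Ndufb4 differed by -0.11 and -0.13 and those of Cox7c by -0.05 to -0.06. Of the 13 subunits encoded by mitochondrial DNA, 2 had a probe with a single symbol. COX2, a catalytic subunit of complex IV, was lower in every shRNA array, with 13.85, 13.76 and 13.78 against 13.91, 13.97 and 13.94 and a difference of -0.14 ± 0.08, and ND3, a membrane subunit of complex I, differed by -0.16 ± 0.12.

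Other genes of the mitochondrion, from lists drawn up with earlier results of these data known, had other medians than the subunits. Mitochondrial ribosomal proteins, which translate the subunits encoded in the organelle, had a median difference of 0.12 over 77 genes (0.10 after quantile normalization). At an unadjusted p under 0.05, 15 of the 77 had a higher and 0 a lower mean in limma, and the groups did not overlap for 24 that were higher (against 9.13% of all genes) and 3 that were lower (against 7.63%). Of 16 measured genes of the citric acid cycle and pyruvate dehydrogenase, 4 had a higher mean at that level (Dlat, Dlst, Fh1 and Mdh2) and 0 a lower one, with a median of 0.04. Dlat, a core enzyme of pyruvate dehydrogenase, had 11.93, 11.90 and 11.87 in the shRNA arrays against 11.69, 11.33 and 11.37 in the scramble arrays, a difference of 0.43 ± 0.12 with an adjusted p of 0.393 from limma.

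Assembly factors, which build the complexes without being part of them, had a median of 0.04 over 43 genes, and 5 had a higher mean at an unadjusted p under 0.05 (Foxred1, Atpaf2, Uqcc1, Coa7 and Cox10) and 0 a lower one. Foxred1, needed to assemble complex I, differed by 0.59 ± 0.16, and Atpaf2, needed for the ATP synthase, by 0.49 ± 0.13, with adjusted p-values of 0.389 and 0.383 from limma. The difference of the list farthest from 0 was that of Sdhaf3, an assembly factor of complex II named after its values were seen, with 8.89, 10.24 and 9.89 in the shRNA arrays against 9.82, 10.41 and 10.59 in the scramble arrays. Its groups overlapped, and the difference of -0.60 ± 0.37 had an adjusted p of 0.667 from limma. Among 21 measured regulators of mitochondrial biogenesis and mitochondrial DNA, Gabpa, Gabpb1 and Polg had a higher mean at that level and 0 a lower one, with a median of 0.07. Gabpa, the DNA-binding subunit of GABP, differed by 0.30 ± 0.11, and its groups did not overlap. Nrf1 differed by 0.25 ± 0.16 with 9.87, 9.83 and 9.81 against 9.93, 9.48 and 9.35, Tfam, which packages mitochondrial DNA, by 0.05 ± 0.09 and the coactivator gene Ppargc1a by -0.17 ± 0.10.

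Electron carriers, exchangers and ATP exporters (13 genes) had a median of 0.01 and 0 at that level in either direction, and cytosolic ribosomal proteins (52 genes) had -0.02, with 1 higher and 0 lower. Glycolysis genes had a median of -0.15 over 16 genes, with 3 lower and 0 higher at an unadjusted p under 0.05. Aldoc (-1.70 ± 0.66) and Eno2 (-1.26 ± 0.47) had the largest differences of that list, and Aldoc had 8.57, 10.82 and 9.69 against 10.33, 12.05 and 11.81. Cell division genes had a median of 0.74 over 24 genes, with 10 higher and 0 lower. The counts of these lists at an unadjusted p under 0.05 are read against 6.22% of genes with a higher and 5.46% with a lower mean at that level, and every adjusted p was above 0.05.

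**Figure D5:**
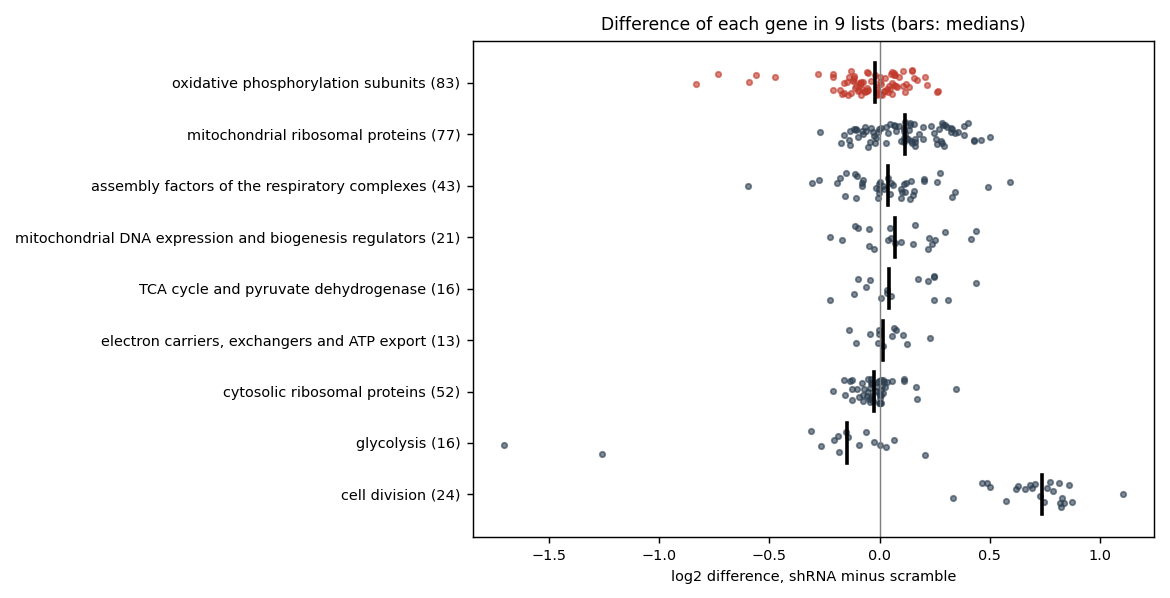
Log2 difference (shRNA minus scramble, horizontal axis) of each gene in the 83 subunits (red) and in 8 other gene lists (dark), with the number of genes in parentheses; thick bars are medians. The subunits cluster around -0.02, the mitochondrial ribosomal proteins around 0.12 and the cell division genes around 0.74.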

How the data were processed

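RNA of 6 N2A cultures (3 Pbcas4 shRNA, 3 scramble) was measured on 1-colour arrays. The deposited log2 values per probe were used as they are. How they were summarized, and whether they were normalized between arrays, is not given in the sources used here. Nothing was normalized for the main fit. Of 35556 probes, 21789 carried 1 symbol, 1621 several and 12146 none. The constructs were compared by limma (version 3.58.1, R 4.3.3; lmFit, eBayes; two-sided; Benjamini-Hochberg over all probes), the test the study names. A call needed an adjusted p below 0.05 and a log2 difference above 0.5, a reading of the study's criterion. The study considered only probes whose variance between conditions exceeded 0.5, and it did report differentially expressed genes. That filter was not reproduced here, so the absence of calls is not a like-for-like count against the study's own. The fit was tested on simulated data. The members, gene lists and naming rule (members at an unadjusted p under 0.05, the 3 largest differences of each complex, complex II, isoform sets, core complex I subunits and 4 regulators) were chosen with earlier results of these data known. Same-numbered arrays deviated together (r = 0.291, 0.137 and 0.103 over all probes), although the deviations of shRNA replicate 2 were closer to those of scramble replicate 3 (r = 0.199), so the number was also fitted as a block. Other alternatives were the scaling, the variance model, array weights, dim probes, the probes of a gene and leaving arrays out. Promoters came from RefSeq (GRCm38.p6). Depth does not apply to arrays, whose number limits the precision.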

Additional observations from a re-analysis of the deposited data

How the results depend on the processing

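No member was called in any alternative run but array weights, which called 4. The count at an unadjusted p under 0.05, 3 as reported, was 6 with a trended and robust variance, 6 with the replicate block of paired arrays, 21 with array weights, 11 without both arrays numbered 1 and 1 to 12 when each array was left out in turn; only Ndufv3 remained without scramble replicate 2, and Cox7a1 left that level without scramble replicate 2 or 3 or shRNA replicate 1 or 3. The 13 genes whose groups did not overlap (4 higher, 9 lower; 15.7%, against 16.8% of all genes) became 8 after each array was centred on its median (6 higher, 2 lower; 9.64%, against 16.9%). They became 48 without both arrays numbered 1 (57.8%, against 55.5%) and 16 to 39 with 1 array left out (19.3 to 47%, against 21 to 40%), where the smaller groups make separation easier. The median differences of the 83 members and of the 5 complexes moved by less than the spread between replicates under every alternative run. Among the other lists, that of the citric acid cycle went from 0.04 to 0.10 without shRNA replicate 1 and 0.15 without both arrays numbered 1. The median of glycolysis went from -0.15 to -0.09 without scramble replicate 2, and to -0.20 without scramble replicate 1 or shRNA replicate 2. That of complex IV stayed below 0, between -0.05 (without tissue isoforms and Cox7a2l) and -0.16 (without both arrays numbered 1), while those of complexes I, II and III were within 0.09 of 0 and changed sign with the scaling or the arrays. Of 453 alternative values for the 35 members named by rule, 29 had the opposite sign to the reported one, and the 4 called with array weights were the only ones to cross the criterion. Without both arrays numbered 1, the lowest adjusted p of a member was 0.0918.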
